A study of Mus musculus with 6 samples.

Results

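Vgf, the granins and the enzymes that cut their precursors were followed in the brains of PLDP mice and control mice. The 10 genes described are the Vgf precursor gene, the granins Chga, Chgb, Scg2, Scg3 and Scg5, the prohormone convertases Pcsk1 and Pcsk2, the convertase inhibitor Pcsk1n and carboxypeptidase E (Cpe). They were chosen by name, as genes of the dense-core vesicle, by a reading in which the diet differences of these same mice were already known, Vgf among them. The difference between diets is therefore given for each of them as a description, with no p-value. Counts of calls among them are printed beside those of all features, and nothing is read from them. All 10 were found by Ensembl identifier among the 60354 features listed for each mouse, and all 10 passed the filter on low counts.

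PLDP is a product of porcine liver digested with protease. Male C57BL/6NCrSlc mice, 16 weeks old when feeding began, received a modified AIN-93M feed in which PLDP made up 20%, or one without PLDP whose calories were matched, for 16 weeks and with 13 mice on each diet. Whole-brain RNA of 3 mice per diet was sequenced from polyadenylated RNA, with control mice numbered 2, 5 and 10 and PLDP mice numbered 17, 22 and 26. All 6 mice had gone through the same series of behavioral tests, during which PLDP was not given, and RNA was taken the day after the last test.

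Neurons and endocrine cells store peptides in dense-core vesicles. Granins are acidic proteins that are packed with peptide precursors at the trans-Golgi network and take part in forming the vesicle. Inside it, the convertases encoded by Pcsk1 and Pcsk2 cut precursors after paired basic residues, and carboxypeptidase E then removes the basic residues left at the new ends. Vgf, named as a gene induced by nerve growth factor, encodes a precursor of several secreted peptides and is a known target of neurotrophins and of neuronal activity, acting through cAMP response elements.

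RefSeq promoters, from 250 bases before to 50 bases after the start of transcription on build GRCm38.p6, were at hand for 8 of the 10 genes, all but Vgf and Cpe. The full cAMP response element TGACGTCA, a palindrome that reads alike on both strands, was present in 3 of the 8, compared with 588 of all 32851 RefSeq promoters of that length (1.79%). The 4 windows below are shown because they carry this element in Scg2, Chgb and Pcsk1 and its shorter core in Chga. Each has 30 bases written 5′ to 3′ on the strand of the gene, with the matched letters in capitals.
Chgb: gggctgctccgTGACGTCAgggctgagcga
Scg2: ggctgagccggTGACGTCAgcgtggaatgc
Pcsk1: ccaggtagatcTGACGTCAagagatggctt
Chga: ggggcggtcctaTGACGtaatttcctgggt
The Chgb window lies at chr2:132781559-132781588 on the plus strand, with the first base of its element at -72 from the RefSeq start. The Scg2 window lies at chr1:79440076-79440105 on the minus strand, with the element at -68. Both elements fall in an exon that GENCODE annotates as untranslated, since its transcripts start further upstream. The Pcsk1 window lies at chr13:75089768-75089797 on the plus strand, with the element at -78, outside the gene. In Chga, at chr12:102554885-102554914 on the plus strand, the core starts at -44, also outside the gene. The core TGACG, searched on both strands (as TGACG or CGTCA, and counted also inside the full element), was present in 7 of the 8 promoters, all but that of Pcsk1n, compared with 20.8% of all promoters. The E-box CANNTG was present in 6 of the 8, all but Scg3 and Pcsk1, compared with 72.3% of all promoters.

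Between 18797061 and 23938729 reads were counted on genes per mouse, and the 10 genes together held 83031 to 104011 of them, or 0.427% to 0.442%. Pcsk1 was the least counted of them, with 977 to 1301 reads per mouse. PLDP mouse 17 stood apart from the other mice. It was the lowest or the highest of the 6 mice in 42.7% of all features tested, compared with 29.3% to 33.1% for each of the others, and in 8 of the 10 genes described here. Differences of the 10 genes are therefore given with and without it. As a check of the tissue, 6 neuronal markers were present and summed to 4989 to 5122 CPM (counts scaled by TMM to a common library size) in control mice and 4925 to 5112 in PLDP mice, led by Snap25. Pituitary markers, whose tissue is rich in granins, were nearly absent. The 7 of them summed to at most 0.481 CPM in any mouse, and Lhb and Pou1f1 had no count in all 6 mice. In whole-brain RNA, fewer cells of a type and less RNA per cell cannot be told apart.

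Levels can be compared between genes only per length, so scaled CPM were divided by the kilobases of annotated exon (CPM per kb, mean ± SD over all 6 mice). Such a comparison also takes the reads of each gene to have been counted alike, which was not tested. Cpe, the trimming carboxypeptidase, had the highest level of the 10 genes at 657 ± 16.3 CPM per kb, and it alone took 39.2% of their counts. Pcsk1n followed with 264 ± 10.6 and Chgb with 197 ± 11.5. In all 6 mice Cpe was above Pcsk1n and Pcsk1n above Chgb, with no overlap in their ranges. Scg5 (121 ± 5.61), Scg2 (112 ± 7.29) and Scg3 (102 ± 2.09) came next, and their order was not firm. Scg5 was above Scg2 in 4 of the 6 mice and Scg2 above Scg3 in 5.

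Vgf (80.0 ± 9.24) and Chga (76.7 ± 2.999) also had overlapping levels per length, with Vgf above Chga in only 2 of the 6 mice. The 2 convertases were lowest, with Pcsk2 at 36.05 ± 1.28 and Pcsk1 at 9.18 ± 0.79 CPM per kb, so the level of Cpe was 71.5-fold that of Pcsk1. Pcsk2 was above Pcsk1 in all 6 mice. When the longest transcript was used in place of all exons, 6 of the 10 genes kept their rank, and the others, Scg2, Scg3, Vgf and Chga, changed places among themselves.

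**Figure D1:**
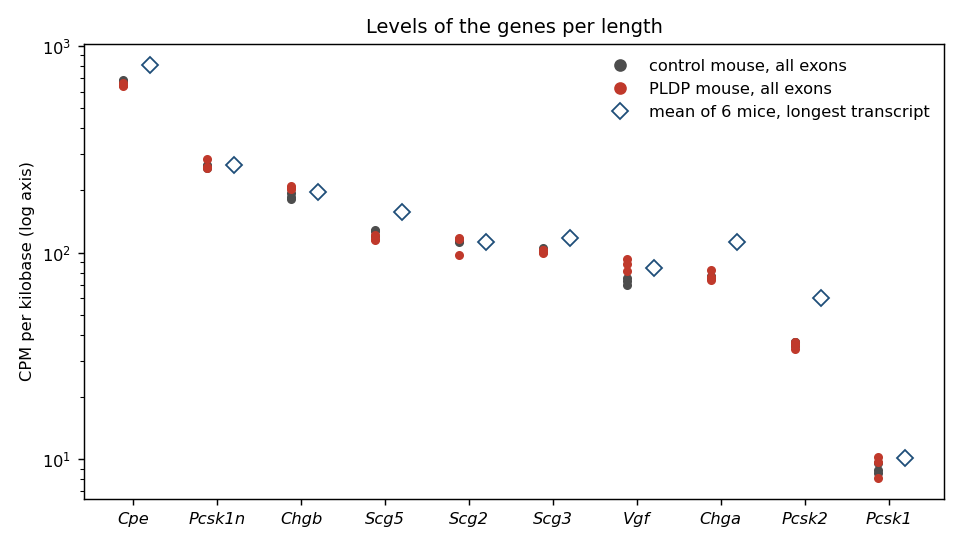
Level of each gene per length in CPM per kilobase on a log axis, with genes ordered by their mean. Dots are single mice (grey for control, red for PLDP) over all exons, and diamonds are means of 6 mice over the longest transcript. Cpe sits at 657 and Pcsk1 at 9.18 CPM per kb.

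Vgf was the gene with the highest log2 fold change between the diets among the 10. Its level was 224, 216 and 207 CPM in control mice 2, 5 and 10, and 241, 261 and 278 CPM in PLDP mice 17, 22 and 26. All 3 PLDP mice were above all 3 control mice, and mouse 17 was the PLDP mouse nearest to the controls. The mean was 216 ± 8.17 CPM in control mice and 260 ± 18.3 CPM in PLDP mice (SD, n = 3 each), a level 20.6% higher, and the log2 fold change was 0.27 ± 0.05 (standard error derived from the edgeR fit). Without mouse 17 it was 0.32 ± 0.04. Vgf lies on chromosome 5 of GRCm38 from 137026392 to 137033351, plus strand (ENSMUSG00000037428), and no annotated gene overlaps it.

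**Figure D2:**
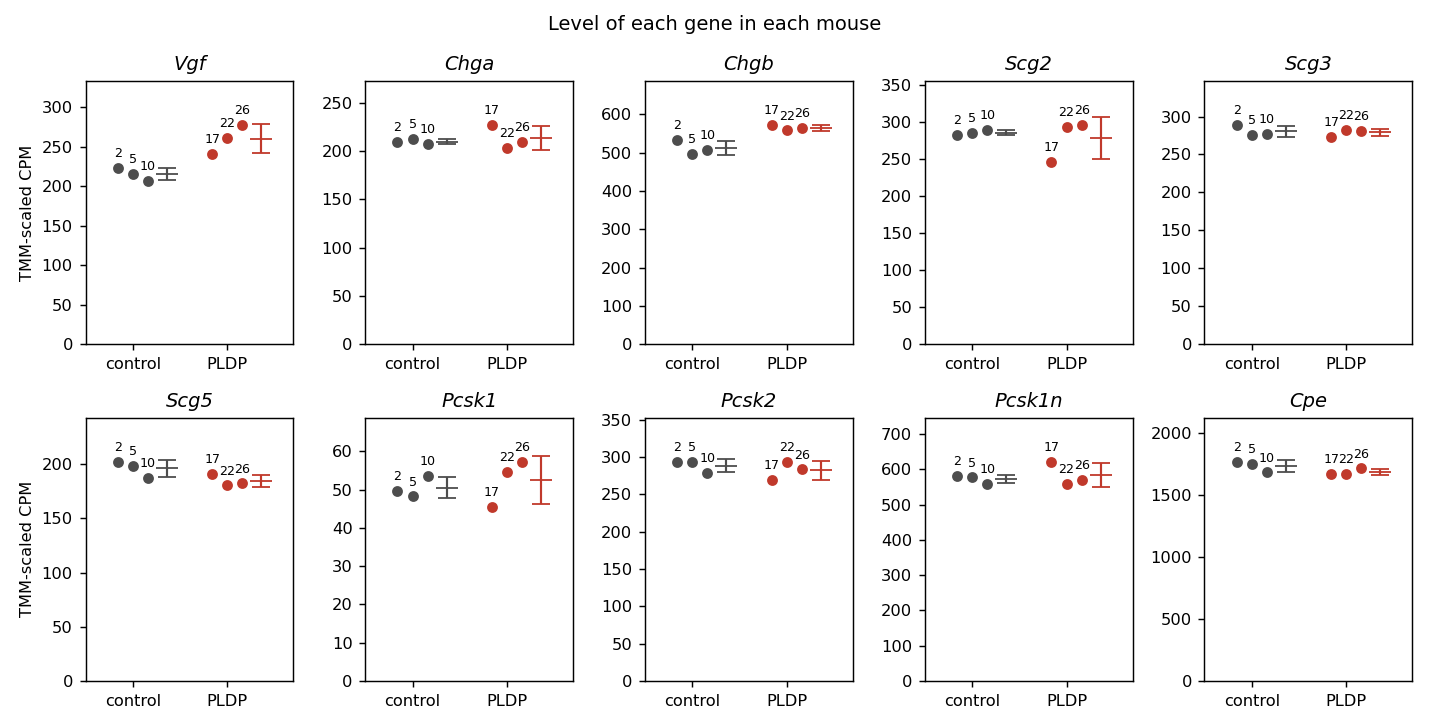
TMM-scaled CPM of each of the 10 genes, with 1 dot per mouse and its number above it (grey for control, red for PLDP), and the mean ± SD of 3 mice beside the dots. Axes start at 0. The diets are separated in Vgf and Chgb, and overlap in the other 8 panels.

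Chgb, secretogranin I, which is abundant in neuronal dense-core vesicles, was the only other gene of the 10 in which the diets did not overlap. Control mice 2, 5 and 10 had 533, 497 and 507 CPM, and PLDP mice 17, 22 and 26 had 572, 558 and 564 CPM. Here mouse 17 was the highest of the PLDP mice, whereas for Vgf it was the lowest. The means were 512 ± 18.7 and 565 ± 7.15 CPM, 10.2% higher in PLDP mice, with a log2 fold change of 0.14 ± 0.04, and of 0.13 ± 0.03 without mouse 17. Chgb lies on chromosome 2 from 132781278 to 132795079, plus strand (ENSMUSG00000027350).

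Chga, the founding granin and the precursor of vasostatin and catestatin, showed no such separation. It had 209.7, 212 and 207 CPM in the control mice and 227, 203 and 209.5 CPM in PLDP mice 17, 22 and 26. Mouse 17 was above all control mice, while mouse 22 was below all of them. The log2 fold change was 0.02 ± 0.04 with mouse 17 and -0.02 ± 0.04 without it. The level of Chga per length relative to that of Chgb was 0.407 ± 0.017 in control mice and 0.375 ± 0.017 in PLDP mice, with overlapping groups.

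Scg2, the precursor of secretoneurin, had 283, 285 and 289 CPM in the control mice and 246, 293 and 296 CPM in PLDP mice 17, 22 and 26. The control mice were within a narrow band (285.5 ± 3.14), and the PLDP mice fell on both sides of it, with mouse 17 below and the other two above. The log2 fold change was accordingly -0.04 ± 0.06 in all 6 mice and 0.04 ± 0.03 without mouse 17, so its sign rested on that mouse. Scg3, which binds chromogranin A and helps to hold it at the vesicle membrane, was the most even of the 10, with 276 to 289 CPM in control mice and 273 to 283 CPM in PLDP mice and a log2 fold change of -0.0085 ± 0.04. Without mouse 17 the log2 fold change of Scg3 was 0.0072 ± 0.03. The ratio of Scg2 to Scg3 per length was 1.11 ± 0.038 in control mice and 1.08 ± 0.091 in PLDP mice.

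Scg5 encodes the chaperone 7B2, which the convertase of Pcsk2 needs to become active and whose carboxyl-terminal peptide inhibits it. It had 203, 199 and 188 CPM in control mice 2, 5 and 10 and 191, 180.5 and 182 CPM in PLDP mice 17, 22 and 26. PLDP mouse 17 was above control mouse 10, and every other PLDP mouse was below all controls. The means were 196 ± 7.68 and 185 ± 5.67 CPM, a difference of -5.96% in PLDP mice, with the lowest log2 fold change of the 10 genes at -0.09 ± 0.04. It was -0.11 ± 0.04 without mouse 17 and -0.12 ± 0.04 without control mouse 10.

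Of the convertases, Pcsk2 had 293, 294 and 279 CPM in the control mice and 269, 293 and 283 CPM in the PLDP mice, with a log2 fold change of -0.03 ± 0.04. Without mouse 17 it was -0.0002 ± 0.04. Relative to its partner Scg5, the level of Pcsk2 per length was 0.292 ± 0.0042 in control mice and 0.303 ± 0.022 in PLDP mice, and the groups overlapped. Pcsk1, the convertase that makes the first cuts in many precursors, had 49.7, 48.2 and 53.5 CPM in the control mice and 45.4, 54.5 and 57.3 CPM in PLDP mice 17, 22 and 26. Mouse 17 was the lowest and mice 22 and 26 the highest of all 6. The log2 fold change of Pcsk1 was 0.05 ± 0.07 in all 6 mice, within its error. It was 0.15 ± 0.06 without mouse 17 and -0.01 ± 0.08 without mouse 26, so its sign too rested on 1 mouse.

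Pcsk1n encodes proSAAS, the inhibitor of the Pcsk1 convertase. It had 582, 577 and 560 CPM in the control mice and 622, 559 and 569 CPM in the PLDP mice, with mouse 17 the highest of all 6 and mouse 22 the lowest. Its log2 fold change was 0.03 ± 0.04, and -0.02 ± 0.03 without mouse 17. The ratio of Pcsk1 to Pcsk1n per length was 0.0345 ± 0.0026 in control mice and 0.0354 ± 0.0059 in PLDP mice, from 0.0286 in mouse 17 to 0.0394 in mouse 26. Cpe had 1772, 1756 and 1685 CPM in the control mice and 1673, 1676 and 1717 CPM in the PLDP mice. Its log2 fold change of -0.04 ± 0.03 was about as large as its error, and it was -0.03 ± 0.03 without mouse 17.

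**Figure D3:**
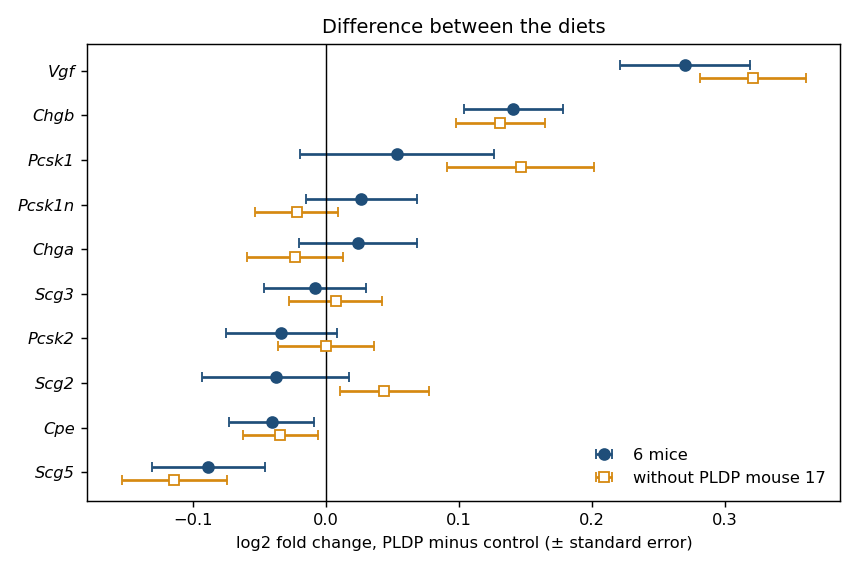
Difference between the diets for each gene as the log2 fold change of PLDP minus control mice, with bars of 1 standard error derived from the edgeR fit. Filled circles are from all 6 mice and open squares from 5 mice without PLDP mouse 17. Vgf (0.27) and Chgb (0.14) stand to the right of 0 in both, while Scg2, Scg3, Chga and Pcsk1n change sign.

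Over the 10 genes, 5 had a positive and 5 a negative log2 fold change, with a median of 0.0078 (all 18580 features tested had a median of -0.00062). At an unadjusted p under 0.05, 2 of the 10, Vgf and Chgb, were called higher in PLDP mice and 0 lower, where 4.91% of all features were called higher and 3.69% lower. Likewise the PLDP mice were above all control mice in 2 of the 10 genes and below all of them in 0, compared with 7.29% and 6.9% of all features. Over all features, 6 had an adjusted p under 0.05 after Benjamini-Hochberg adjustment in edgeR's quasi-likelihood test.

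The summed level of the 10 genes was 4252 to 4436 CPM in control mice and 4360 to 4438 CPM in PLDP mice, so the sums overlapped. How the genes varied between mice is given as a description over 6 mice that share libraries and diets. Mouse 17 was lowest of the 6 in Scg2, Scg3, Pcsk1, Pcsk2 and Cpe and highest in Chga, Chgb and Pcsk1n. Accordingly Chga and Pcsk1n went together (Pearson r of log2 CPM 0.972, and 0.971 after the mean of each diet was removed), as did Scg2 and Pcsk1 (0.833 and 0.932). Scg2 went against Chga (-0.935 and -0.932) and against Pcsk1n (-0.953 and -0.95). Without mouse 17, in 5 mice and as a choice made after seeing the data, r was -0.466 for Scg2 with Chga, -0.664 for Scg2 with Pcsk1n, 0.826 for Chga with Pcsk1n and 0.933 for Scg2 with Pcsk1, so much of the opposition between Scg2 and Chga rested on that mouse. Vgf and Chgb had r = 0.834, 0.099 once the diet means were removed and 0.927 without mouse 17.

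**Figure D4:**
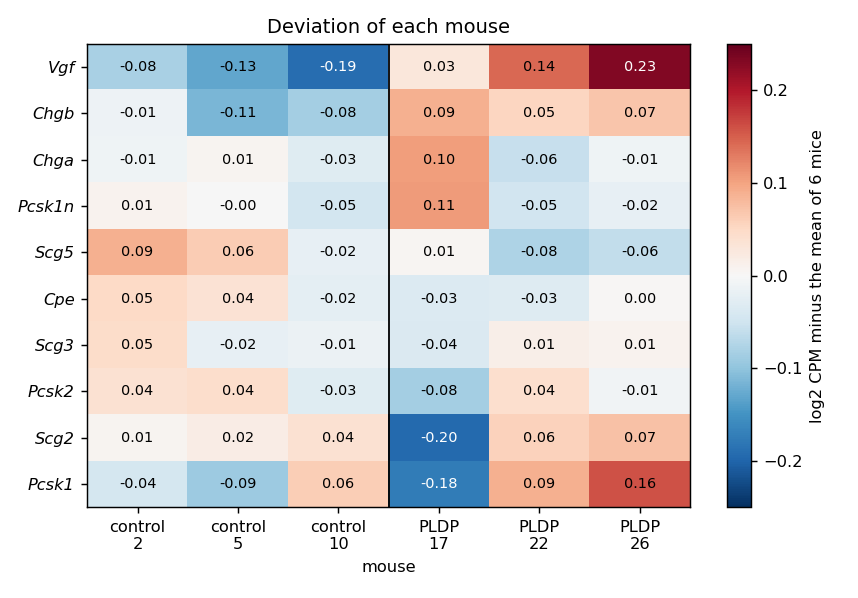
Deviation of each mouse (columns, control left of the line and PLDP right of it) from the mean of 6 mice for each gene (rows), in log2 CPM, red above and blue below the mean. PLDP mouse 17 is at 0.10 in Chga and 0.11 in Pcsk1n but at -0.20 in Scg2 and -0.18 in Pcsk1, while Vgf goes from -0.19 in control mouse 10 to 0.23 in PLDP mouse 26.

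The genes most like Vgf over the 6 mice, of 10215 genes with a mean of at least 10 CPM, were Dlg4 (r = 0.990), Abcg1 (0.987), Ajap1 (0.986), Trpc4 (0.986) and Casc3 (0.984), and after the diet means were removed their r was 0.934 to 0.974. Dlg4 encodes the postsynaptic scaffold PSD-95, Abcg1 a sterol transporter, Trpc4 a cation channel and Casc3 a core protein of the exon junction complex. Dlg4 had 478 to 493 CPM in control mice and 508, 539 and 547 CPM in PLDP mice 17, 22 and 26, with Vgf's order among the PLDP mice as well. These genes were picked from 10215 for their likeness to Vgf in these same 6 mice. The shared order and the high r therefore follow from the choice, and nothing is read from them. The log2 fold change of Dlg4 was 0.12 ± 0.04 (edgeR adjusted p = 0.326). Chgb ranked 397th in this order and the other 8 genes described here ranked from 2159th (Pcsk1) to 9301st (Scg5).

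Because Vgf is induced by activity, a list of 13 activity-induced genes was set beside it. Of these, 5 were called higher in PLDP mice (Fosb, Arc, Dusp1, Nptx2 and Homer1) and 0 lower, with none at an adjusted p under 0.05, where 4.91% of all features were called higher. Nptx2, a secreted pentraxin of excitatory synapses, had 42.1, 42.6 and 45.8 CPM in the control mice and 46.8, 55.0 and 55.9 CPM in the PLDP mice, and was the only one of the 13 in which the diets did not overlap. Over all features, 7.29% had all PLDP mice above all control mice. Arc had 207, 216 and 191 CPM in the control mice and 184, 253 and 297 CPM in PLDP mice 17, 22 and 26. Mouse 17 was the lowest of the 6 in 11 of the 13 genes and mouse 26 the highest in 12. Over the 6 mice the r of these genes with Vgf went from 0.407 (Egr4) to 0.881 (Nptx2), and after the diet means were removed from 0.394 (Homer1) to 0.957 (Junb), with Arc at 0.795 and 0.928. By r over the 6 mice they ranked from 230th (Nptx2) to 2494th (Egr4) of the 10215 genes. Mouse 17 was above the controls in Vgf and below them in Arc.

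The regional and cell type markers that moved with the diets are given beside Vgf and Chgb. All but 1 of 10 brainstem and spinal cord markers were called lower in PLDP mice, with a sum of 160 to 174 CPM in control mice and 88.0 to 124 CPM in PLDP mice, and the glycine transporter Slc6a5 fell by 0.66 ± 0.10 on the log2 scale (edgeR adjusted p = 0.0369). Of 8 markers of cortical and hippocampal projection neurons, 3 were called higher and 0 lower, and their sum was 3345 to 3448 CPM in control mice and 3606 to 3666 CPM in PLDP mice, led by Camk2a. Choroid plexus markers, led by Ttr, summed to 737 to 795 CPM and 578 to 735 CPM, with 2 of 5 called lower. Most of that sum was Ttr, at a mean of 658 CPM over the 6 mice. Ttr was the only 1 of the 5 in which the diets did not overlap. Of the other lists reported here, 1 of 6 neuronal, 1 of 6 astrocyte, 1 of 6 microglial, 1 of 9 hypothalamic and 0 of 5 blood genes were called lower, and none of these was called higher. The myelin gene Mbp was also called lower, at -0.12 ± 0.04 (edgeR adjusted p = 0.448), with overlapping groups, and the myelin gene Mobp, at -0.01 ± 0.05, was not called. The part of these differences in the levels of Vgf and Chgb was not tested.

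The other genes of the secretory pathway were read from a list of 66 by role, of which 60 were tested. Of these 60, 3 were called higher in PLDP mice (Ptprn, Syt7 and Cartpt) and 5 lower (Gal, Rab27b, Adcyap1, Ctsl and Pmch), 0 with an adjusted p under 0.05 in edgeR. These are 8 of 60, where 4.91% and 3.69% of all features were called in each direction. The PLDP mice were above all control mice in 6 of the 60 and below all of them in 7, compared with 7.29% and 6.9% of all features. The list's median log2 fold change was 0.0016, with 31 genes above 0 and 29 below. The list thus had no common direction.

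In the group for vesicle formation, transport and release, 2 of 22 tested genes were called higher and 1 lower (4.91% and 3.69% of all features). Ptprn, a membrane protein of dense-core vesicles (IA-2), had 456, 476 and 471 CPM in the control mice and 501, 483 and 497 CPM in the PLDP mice, and a log2 fold change of 0.08 ± 0.04 (edgeR adjusted p = 0.563). Syt7, a calcium sensor of release, was within 372 to 374 CPM in control mice and had 380 to 409 CPM in PLDP mice, with 0.09 ± 0.04 (edgeR adjusted p = 0.501). Rab27b, a GTPase that docks secretory vesicles, had 26.9 to 28.3 CPM in control mice and 21.2, 23.98 and 25.01 CPM in the PLDP mice, all below the controls, with -0.23 ± 0.07 (edgeR adjusted p = 0.336). Kif1a, the motor that carries dense-core vesicles along axons, was the gene of this group with the highest CPM, at 1044 ± 11.3 and 1071 ± 55.9 CPM (n = 3 each), with overlapping groups.

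Among 22 tested peptide precursors, 1 was called higher and 3 lower (4.91% and 3.69% of all features). Gal, the galanin precursor, had 3.94, 4.04 and 3.01 CPM in the control mice and 2.32, 2.64 and 2.14 CPM in the PLDP mice, and its log2 fold change of -0.62 ± 0.18 had the largest size on the list (edgeR adjusted p = 0.306). Adcyap1, the precursor of PACAP, had 21.3 to 25.6 CPM in control mice and 18.9 to 20.7 CPM in PLDP mice, with -0.23 ± 0.08 (edgeR adjusted p = 0.42). The groups did not overlap in Gal or Adcyap1, and did in the other 2 that were called. Over all features, 6.9% had all PLDP mice below all control mice. Pmch, the precursor of melanin-concentrating hormone, had 14.99 to 16.7 CPM in control mice and 7.67, 14.2 and 15.1 CPM in PLDP mice 17, 22 and 26, so its log2 fold change of -0.36 ± 0.16 (edgeR adjusted p = 0.549) rested on mouse 17, without which it was not called. Cartpt, the precursor of CART, had 14.8 to 16.1 CPM in control mice and 19.7, 17.2 and 16.0 CPM in the PLDP mice, with 0.21 ± 0.09 (edgeR adjusted p = 0.516), and it too was not called without mouse 17. Penk, the precursor with the highest CPM, was at 184 ± 3.82 in control mice and 185 ± 7.64 in PLDP mice.

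Of the 7 other convertases, which work mostly in the constitutive pathway, none was called in either direction. Mbtps1, the one with the highest CPM, had 85.1 ± 1.89 and 83.5 ± 4.58 CPM. Of 7 tested trimming and modifying enzymes, 1 was called lower (3.69% of all features were). This was Ctsl, a protease that also cuts precursors within vesicles, with 81.1 to 87.4 CPM in control mice and 77.3 to 78.5 CPM in PLDP mice (-0.11 ± 0.05, edgeR adjusted p = 0.497). Pam, which amidates the ends of peptides, had 164 ± 2.11 and 166 ± 10.1 CPM. The receptors reported to bind Vgf peptides were not called. C3ar1 had 1.27 to 1.698 CPM in control mice and 1.81 to 2.05 CPM in PLDP mice, and C1qbp had 50.5 ± 0.78 and 48.8 ± 0.76 CPM.

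**Figure D5:**
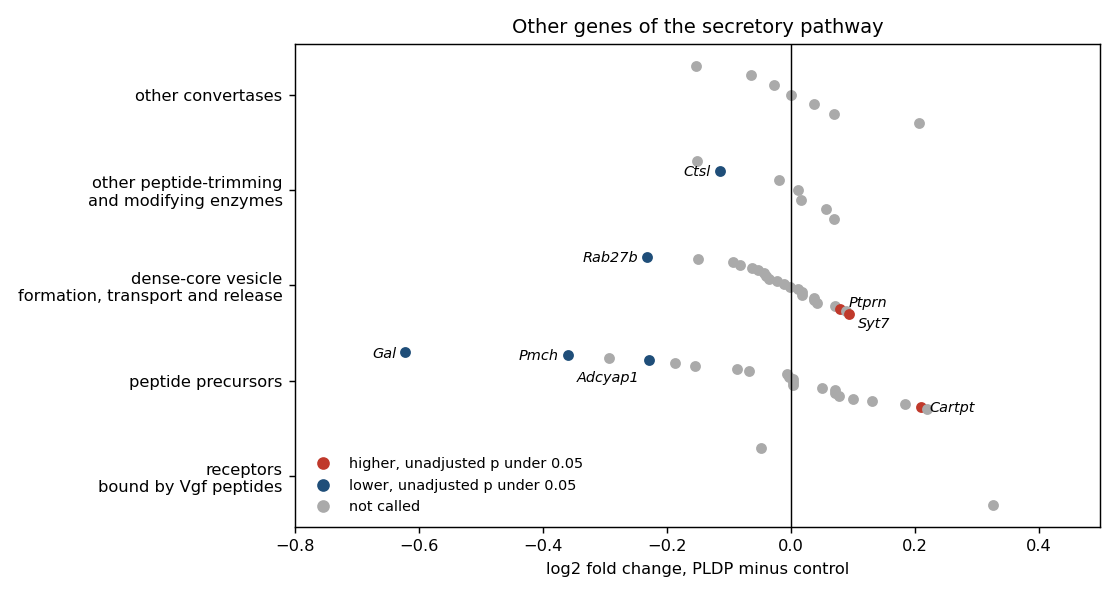
Log2 fold change, PLDP minus control mice, of the 60 tested genes of the secretory pathway outside the 10 genes described, by role. Red dots were called higher and blue dots lower at an unadjusted p under 0.05, and grey dots were not called. Gal is the leftmost at -0.62, and dots lie on both sides of 0 in every group.

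Gal and Rab27b were called lower when any 1 mouse was left out and under all 8 other alternatives. All these fits reuse the same mice. Their adjusted p, from the test of each setting (edgeR, DESeq2 or limma voom), was 0.096 to 0.788 for Gal and 0.187 to 0.821 for Rab27b. Gal had only 40 to 89 reads per mouse. When each mouse was left out in turn, Adcyap1 was called in 5 of 6 fits, Ctsl, Cartpt and Pmch in 3, and Ptprn and Syt7 in 2. In the same fits the log2 fold change was 0.22 to 0.32 for Vgf and 0.12 to 0.17 for Chgb, given as values only.

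The places of the other genes, all on GRCm38, were as follows. Scg2 (ENSMUSG00000050711) lies on chromosome 1 from 79434669 to 79440120, Scg3 (ENSMUSG00000032181) on chromosome 9 from 75643189 to 75684056, Scg5 (ENSMUSG00000023236) on chromosome 2 from 113776362 to 113829121 and Cpe (ENSMUSG00000037852) on chromosome 8 from 64592542 to 64693054, all on the minus strand. Chga (ENSMUSG00000021194) lies on chromosome 12 from 102554969 to 102565028, Pcsk1 (ENSMUSG00000021587) on chromosome 13 from 75089826 to 75134861, Pcsk2 (ENSMUSG00000027419) on chromosome 2 from 143546156 to 143816285 and Pcsk1n (ENSMUSG00000039278) on chromosome X from 7919822 to 7924410, all on the plus strand. Chgb, Scg5 and Pcsk2 thus share chromosome 2. Antisense genes overlap Pcsk2, and the strand setting of the counting is not given in the sources used here. Pcsk2os1 shares 260 exonic bases with Pcsk2 and had 607 counts over all 6 mice, and Pcsk2os2 shares 99 and had 1. Eras shares 135 exonic bases with Pcsk1n on the opposite strand and had 0 counts, and Gm37871 lies within Scg3, shares no exonic base and had 0.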

How the data were processed

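Whole-brain RNA of 3 control and 3 PLDP mice was sequenced from TruSeq Stranded mRNA libraries on an Illumina NovaSeq. The authors deposited raw read counts per gene, 1 table per mouse and not normalized. The submitters' processing notes name cutadapt 2.9, HISAT2 2.2.0, featureCounts 2.6.0 and DESeq2 1.6.3, and the builds GRCm38 and GRCh38 without a role for either. The annotation, the strand setting and the treatment of shared reads are not given in the sources used here. Overlapping genes, and levels compared between genes, are uncertain to that extent.

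Of 60354 features, 55034 carry Ensembl identifiers, of which 54777 were found in GENCODE M21 (GRCm38). The other 5320 features stayed in the tests. Counts were filtered by filterByExpr (minimum count 10, minimum total 15), scaled by TMM and fitted with edgeR 4.0.16 in R 4.3.3 (glmQLFit, glmQLFTest, diet as the only term), with a call at an unadjusted p under 0.05 and Benjamini-Hochberg adjustment over 18580 features. The standard error of a log2 fold change was derived as its size divided by the square root of the quasi-likelihood F statistic. CPM are TMM-scaled, with a prior count of 0.5 for log2 values. Mice were separate animals. The fit was tested on simulated data.

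The members and lists were chosen with earlier results of these data known. Named are all 10 members, of the secretory pathway list up to 5 genes called in each direction by smallest p and the gene with the highest CPM of each role, the 5 genes most like Vgf, up to 2 genes with the highest CPM of each context list, and overlapping genes. The called activity-induced genes, and Lhb and Pou1f1 at 0, were named after their values were seen. Alternatives were no filter, at least 10 counts in every mouse, scaling by RLE, by the upper quartile or by library size alone, DESeq2 1.42.0, the likelihood ratio test, limma voom (limma 3.58.1), leaving out each mouse, and the longest transcript as length. Promoters came from RefSeq (GRCm38.p6). Features of the proteins were planned and are not analysed here, nor is the neuronal marker Tubb3, which had no row matched. The result of 1 marker list is not reported here.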

Additional observations from a re-analysis of the deposited data

How the results depend on the processing

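Under the 8 other settings of filter, scaling and test, the log2 fold change of each of the 10 genes kept its sign. Leaving out 1 mouse turned the sign of 5 of them, which ranged from -0.09 to 0.04 for Scg2, -0.02 to 0.01 for Scg3, -0.02 to 0.06 for Chga, -0.01 to 0.15 for Pcsk1 and -0.02 to 0.05 for Pcsk1n. Calls among these genes rest on the contrast that was known when they were chosen, so nothing is read from their number. Of the 10 genes, 2 were called higher (3 without PLDP mouse 17, where 1293 of all features were) and 0 were called lower in the fit reported, but 1, Scg5, was without a filter on low counts and 1 with library size only (1046 and 723 of all features), and leaving out 1 mouse gave 0 to 1 (1 without control mouse 10 or PLDP mouse 17); the cause was not tested. Of the secretory pathway list, 3 were called higher, and leaving out 1 mouse gave 1 (without control mouse 2, 5 or 10 or PLDP mouse 26) to 4 (without PLDP mouse 17). Over all features, 913 were called higher and 685 lower. DESeq2 gave 564 and 362. Without a filter 1314 were called higher and 1046 lower, with 36099 features tested. Leaving out 1 mouse gave 640 to 1293 higher and 493 to 1072 lower, the largest counts without PLDP mouse 17. The count with an adjusted p under 0.05 was 6, and was 180 without a filter, 24 with DESeq2, 75 in the likelihood ratio test, 3 with limma voom, 1 with library size only, and 0 to 182 when 1 mouse was left out. Without a filter Pmch was among them, which it was not otherwise. With the longest transcript as length, 6 of 10 genes kept their rank by level. No paired analysis was possible because the mice of the diets share no replicate numbers. With 3 mice per diet, the standard errors of the log2 fold changes of the 10 genes were 0.03 to 0.07.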
